A study of Mus musculus with 8 samples.

Results

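Conventional dendritic cell identity genes are 10 genes by which conventional dendritic cells (cDC) and their branches are usually recognised in the mouse: Itgax, Zbtb46, Batf3, Id2, Sirpa, Clec9a, Xcr1, Itgae, Klf4 and Dpp4. They were chosen by name, with earlier results of these data known, and all 10 were found among the 55376 genes of the deposited count table. The samples were mouse bone marrow dendritic cells (BMDC), antigen-presenting cells grown from bone marrow, kept overnight with heat-inactivated Prevotella melaninogenica (PM) or heat-inactivated Prevotella heparinolytica (PH). There were 3 PM samples and 3 PH samples, which carry the sample ids 1, 3 and 4 in both treatments and are named here as replicates 1, 3 and 4. No untreated cells were analysed here, so each value compares PM with PH, and a change from resting cells could not be measured. The sources used here do not give the strain or age of the mice, the cytokines of the culture, the bacterial dose, or whether a sample id is an animal or a culture. P-values thus measure the spread between these samples, which may be technical in part.

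Conventional dendritic cells take up antigen and present it to T cells. Zbtb46 and Itgax (CD11c) are shared by both of their branches. The cDC1 branch, which depends on Batf3 and Id2 in the mouse, carries Clec9a, Xcr1 and often Itgae, and specialises in presenting antigen from dead cells to CD8+ T cells. The cDC2 branch carries Sirpa and in part depends on Klf4, and mainly presents antigen to CD4+ T cells. Cultures of bone marrow can also hold macrophages and monocytes, which can express Itgax, Sirpa, Id2 and Klf4 as well, so these genes do not mark dendritic cells alone. In bulk samples, fewer cells of a type and less RNA per cell cannot be told apart.

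Total counts were 21192990 to 38231719 in PM samples and 11624367 to 40233148 in PH samples. PH replicate 3 was the shallowest, and it also had 4029 CPM (counts scaled to the same library total) of Gm42418, a predicted gene, against 878 to 1496 CPM in the other samples. The PM column with id 1 and the PH column with id 3 match 2 libraries each by name, of which 1 is labelled as run 2, and the sources do not say whether they hold 1 run or both. CPM values below are scaled by library size with TMM factors. The same reads per exon length, as TPM (a level per exon length, scaled to the same total in each sample), serve for levels between genes.

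The levels of the identity genes differed widely, and Clec9a and Xcr1 were near the detection limit. By mean TPM over the 6 samples, Id2 stood highest at 655 ± 29.5 TPM (SD, n = 6), followed by Sirpa at 408 ± 46.0 TPM, Batf3 at 170 ± 25.0 TPM, Itgax at 79.5 ± 8.24 TPM and Zbtb46 at 25.2 ± 3.43 TPM. Dpp4 at 6.49 ± 0.952 TPM and Klf4 at 6.31 ± 1.37 TPM came next, and their ranges over the samples overlapped (5.27 to 8.22 TPM and 4.40 to 7.85 TPM). Dpp4 was above Klf4 in 2 of 6 samples. Itgae followed at 2.37 ± 0.738 TPM, Clec9a at 0.545 ± 0.279 TPM and Xcr1 at 0.137 ± 0.0532 TPM. Dpp4 and Klf4 were the only neighbours in this order with overlapping ranges, and each other gene was above the next in 6 of 6 samples. Batf3 and Id2, the regulators of the cDC1 branch, were thus abundant in libraries that held 4 to 13 reads of Xcr1 and 6 to 46 reads of Clec9a.

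**Figure D1:**
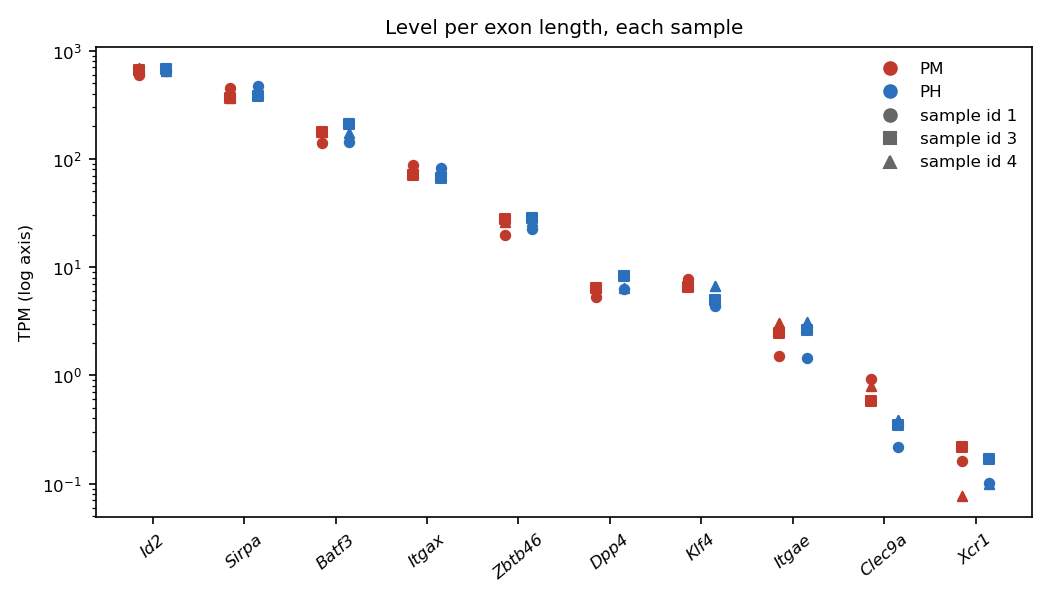
Level of each identity gene per exon length in TPM (log axis) in each of the 6 samples, with genes in order of their mean. PM samples stand left of PH samples for each gene, and marker shapes give the sample id. The levels run from 655 TPM for Id2 to 0.137 TPM for Xcr1.

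Between PM and PH, the fit that paired the samples by id called 2 of the 9 identity genes that passed the low-count filter. These were Clec9a and Klf4, and both calls were lost without id 1. Without a block, which leaves the pairing out, the fit called 0 of the 9. Of 14382 genes tested with edgeR's quasi-likelihood test, 2.34% passed an adjusted p of 0.05 (Benjamini-Hochberg over all genes), 0.702% higher and 1.64% lower with PM, and 0 of 9 identity genes did. At an unadjusted p under 0.05 there were 2, Clec9a and Klf4, both higher with PM, against 6.36% of all genes higher at that level. DESeq2 called 0. The median log2 fold change of the 9 genes was -0.02, and that of all genes tested was 0.01. With the sample id as a block, 15.3% of all genes passed, 7% higher and 8.27% lower with PM, and 2 of 9 identity genes passed, again Clec9a and Klf4, both higher. Whether 2 of 9 exceeds the share of all genes was not tested. The genes differed in direction: 3 were higher with PM in 3 of 3 pairs (Itgax, Clec9a and Klf4), 3 were lower in 3 of 3 pairs (Zbtb46, Sirpa and Dpp4) and 3 were mixed (Batf3, Id2 and Itgae), where 23.8% of all genes were higher and 22% lower in 3 of 3 pairs.

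**Figure D2:**
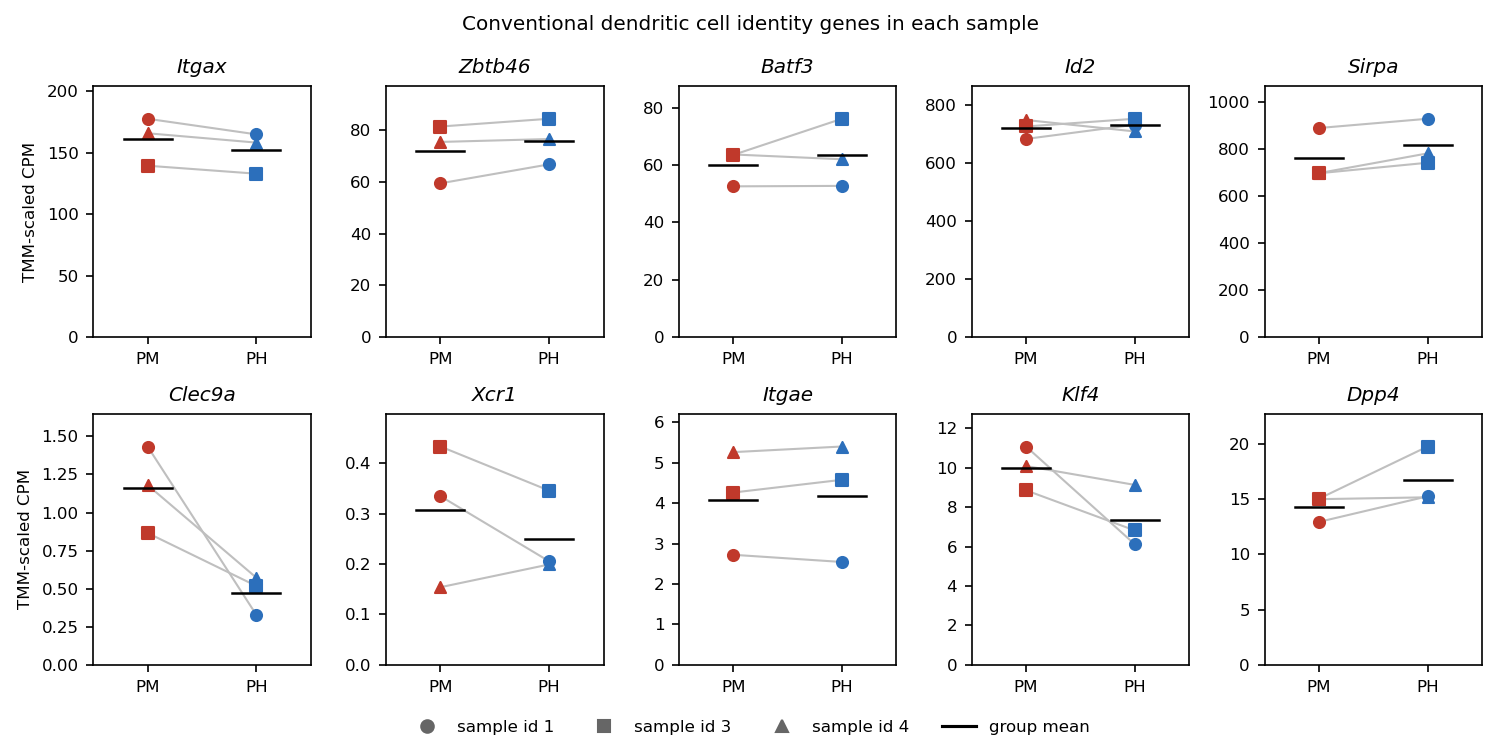
TMM-scaled CPM of each identity gene in every sample, PM left and PH right, on axes that start at 0. Grey lines join samples of the same id and black bars are group means. Clec9a is the gene whose 3 PM samples (0.866 to 1.43 CPM) all lie above its 3 PH samples (0.328 to 0.572 CPM).

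Itgax encodes CD11c, the integrin alpha X chain that pairs with the beta 2 chain Itgb2 (chromosome 7, 128129547 to 128150657, plus strand, GRCm38). Its level was 178, 140 and 166 CPM in PM replicates 1, 3 and 4, against 165, 133 and 158 CPM in PH replicates 1, 3 and 4. Each PM sample was slightly above the PH sample of the same id, while the groups overlapped. The log2 fold change was 0.08 ± 0.11 (SE, adjusted p = 0.822), and 0.08 ± 0.05 with the block (adjusted p = 0.288). The partner chain Itgb2 had a log2 fold change of 0.09 ± 0.15.

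Zbtb46, a zinc finger transcription factor expressed by cDC and their committed precursors (chromosome 2, 181387762 to 181459426, minus strand), was at 59.4, 81.4 and 75.4 CPM in PM replicates 1, 3 and 4, against 66.8, 84.4 and 76.5 CPM in PH replicates 1, 3 and 4. The sample of id 1 was the lowest in both treatments, and the groups overlapped. PM over PH gave a log2 fold change of -0.07 ± 0.12 (adjusted p = 0.874, or 0.389 with the block). The 3 genes whose log2 CPM followed Zbtb46 most closely over the 6 samples, among 8761 genes with at least 10 CPM on average, were Ier5 (Pearson's r = 0.998), Dnajb2 (0.996) and Suox (0.995). As many as 168 genes had an r above 0.95, so likeness to Zbtb46 over so few samples was common. These samples share their ids between treatments. Ier5 shows the shared pattern, at 175, 224 and 213 CPM in PM replicates 1, 3 and 4 and 191, 232 and 216 CPM in PH replicates 1, 3 and 4.

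Batf3, a basic leucine zipper factor that the mouse cDC1 branch needs (chromosome 1, 191098325 to 191108943, plus strand), was at 52.6, 63.6 and 63.7 CPM in PM replicates 1, 3 and 4, against 52.8, 76.2 and 62.0 CPM in PH replicates 1, 3 and 4. The pairs of ids 1 and 4 were nearly level, and the highest value was that of the shallow PH replicate 3. Its log2 fold change was -0.08 ± 0.13 (adjusted p = 0.866), and 0.06 without PH replicate 3. Id2, an inhibitor that binds E proteins and keeps them off DNA (chromosome 12, 25093799 to 25097140, minus strand), varied least of the identity genes. It was at 683, 726 and 748 CPM in PM replicates 1, 3 and 4, against 732, 753 and 709 CPM in PH replicates 1, 3 and 4. Its coefficient of variation was 4.61% in PM and 2.98% in PH, and the log2 fold change was -0.02 ± 0.07 (adjusted p = 0.928).

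Klf4, a zinc finger factor that part of the mouse cDC2 branch needs and that monocytes and macrophages also express (chromosome 4, 55527143 to 55532466, minus strand), was at 11.1, 8.86 and 10.1 CPM in PM replicates 1, 3 and 4, against 6.12, 6.82 and 9.13 CPM in PH replicates 1, 3 and 4. PM was higher in 3 of 3 pairs, by 0.86, 0.38 and 0.14 on the log2 scale for ids 1, 3 and 4, while PM replicate 3 lay below PH replicate 4. The log2 fold change was 0.41 ± 0.16 (adjusted p = 0.314), and with the block it was 0.42 ± 0.11 and passed (adjusted p = 0.0106). The blocked call was lost without id 1 (0.21, adjusted p = 0.277) and held without id 3 (0.43, adjusted p = 0.0306) or id 4 (0.65, adjusted p = 3.9e-04). The relatives Klf2 and Klf6 had log2 fold changes of -0.03 ± 0.09 and 0.04 ± 0.09 and did not pass with either fit.

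The promoter window of Klf4, 250 bases before to 50 bases after the start site of RefSeq (GRCm38.p6, chr4:55532426-55532725, minus strand), is shown because Klf4 was one of the genes called with the block. Capitals mark CANNTG (the E-box, read alike on both strands and bound by the E proteins that Id2 inhibits) and GGGCGG or its reverse complement (the GC box, to which KLF and SP factors can bind).
Klf4: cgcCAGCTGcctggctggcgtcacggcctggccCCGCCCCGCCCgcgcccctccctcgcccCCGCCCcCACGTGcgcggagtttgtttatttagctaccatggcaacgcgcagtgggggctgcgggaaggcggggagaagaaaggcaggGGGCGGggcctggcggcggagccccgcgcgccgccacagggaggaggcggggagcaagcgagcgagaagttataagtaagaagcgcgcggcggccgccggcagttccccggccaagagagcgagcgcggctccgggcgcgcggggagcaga
The window has 74.3% G and C, 4 GC boxes, which 35.7% of 32851 windows have at least 1 of, and 2 E-boxes, which 72.3% of windows have at least 1 of. Motifs of different kinds do not overlap in it.

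Clec9a (DNGR-1), a receptor by which cDC1 recognise actin exposed on dead cells (chromosome 6, 129408862 to 129424763, plus strand), had the largest difference of the identity genes and rested on few reads. PM replicates 1, 3 and 4 held 30, 26 and 46 reads, against 8, 6 and 23 reads in PH replicates 1, 3 and 4. As CPM with exact 95% Poisson intervals, which cover counting error only, these were 1.43 (0.967 to 2.05), 0.866 (0.565 to 1.27) and 1.18 (0.864 to 1.57) with PM, against 0.328 (0.142 to 0.647), 0.518 (0.190 to 1.13) and 0.572 (0.363 to 0.859) with PH. The groups did not overlap, as was so for 10.1% of all genes in that direction, but the intervals of single samples did. The log2 fold change was 1.25 ± 0.32 (adjusted p = 0.0974), a 2.38-fold difference, and 1.29 ± 0.32 with the block, where it passed (adjusted p = 0.00412). It was also called with no low-count filter (adjusted p = 0.0192), and the blocked call was lost without id 1 (0.95, adjusted p = 0.0673), whose pair differed most, by 2.13 on the log2 scale, against 0.74 for id 3 and 1.04 for id 4. Clec9a passed the filter in 3 PM and 2 PH samples. Set against Sirpa within each sample, the log2 ratio of CPM of Clec9a to Sirpa was -9.28, -9.65 and -9.20 in PM replicates 1, 3 and 4 and -11.46, -10.48 and -10.41 in PH replicates 1, 3 and 4.

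The Clec9a window (GRCm38.p6, chr6:129408612-129408911, plus strand) is shown for the same reason. It has 37.0% G and C, 1 E-box in capitals and no other motif of the 5 searched, namely E-box, GC box, TGANTCA (AP-1, the family of Batf3), GAGGAAGT (letters of PU.1) and the letters of the interferon-stimulated response element (ISRE), each on both strands.
Clec9a: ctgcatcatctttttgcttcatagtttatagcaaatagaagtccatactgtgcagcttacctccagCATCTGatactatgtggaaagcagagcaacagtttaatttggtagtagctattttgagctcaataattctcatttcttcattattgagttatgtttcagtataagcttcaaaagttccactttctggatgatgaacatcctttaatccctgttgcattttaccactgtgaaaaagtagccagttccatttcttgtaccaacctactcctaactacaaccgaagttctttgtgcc
The TGANTCA letters were in the windows of Itgax and Zbtb46, 2 of the 8 identity genes with a window, and in 7.81% of all windows. GAGGAAGT was in 0 of the 8 and in 3.20% of all windows. The Zbtb46 window (chr2:181424339-181424638, minus strand) lies inside the gene span given above and not at its outer start, 181459426.

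Xcr1, the receptor of the chemokine Xcl1 (chromosome 9, 123852315 to 123862029, minus strand), was below the low-count filter. It had 7, 13 and 6 reads in PM replicates 1, 3 and 4, against 5, 4 and 8 in PH replicates 1, 3 and 4, and the groups overlapped as CPM (0.154 to 0.433 with PM and 0.199 to 0.345 with PH). Over the groups, 26 reads with PM against 17 with PH gave a ratio of 1.29 with an exact 95% interval of 0.676 to 2.54, for counting error only. A difference was not detectable at this depth. With no filter, edgeR gave a log2 fold change of 0.37 ± 0.56 (adjusted p = 0.836).

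Itgae encodes CD103, the alpha E integrin chain that pairs with Itgb7 and binds E-cadherin (chromosome 11, 73090583 to 73147446, plus strand). It was at 2.72, 4.26 and 5.26 CPM in PM replicates 1, 3 and 4, against 2.55, 4.58 and 5.40 CPM in PH replicates 1, 3 and 4. Samples of the same id were close, and id 1 was the lowest in both treatments. Without the block its log2 fold change was -0.01 ± 0.31 (adjusted p = 0.994), and the block cut its SE to 0.14 (adjusted p = 0.941). Itgb7 (-0.03 ± 0.11) and the E-cadherin gene Cdh1 (-0.09 ± 0.14) did not pass either.

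Dpp4 (CD26), a surface peptidase of cDC1 and other immune cells (chromosome 2, 62330073 to 62412231, minus strand), was at 12.95, 15.05 and 15.01 CPM in PM replicates 1, 3 and 4, against 15.3, 19.8 and 15.2 CPM in PH replicates 1, 3 and 4. All PM samples lay below all PH samples, as was so for 9.28% of all genes, though PM replicate 3 and PH replicate 4 were almost level. Dpp4 had a log2 fold change of -0.20 ± 0.12 (adjusted p = 0.545, or 0.132 with the block), and -0.09 without PH replicate 3. Its window (GRCm38.p6, chr2:62412182-62412481, minus strand) is shown because it alone of the 8 held the ISRE letters, here in reverse complement as the second run of capitals. These letters were in 3.44% of all windows. The first run of capitals is an E-box.
Dpp4: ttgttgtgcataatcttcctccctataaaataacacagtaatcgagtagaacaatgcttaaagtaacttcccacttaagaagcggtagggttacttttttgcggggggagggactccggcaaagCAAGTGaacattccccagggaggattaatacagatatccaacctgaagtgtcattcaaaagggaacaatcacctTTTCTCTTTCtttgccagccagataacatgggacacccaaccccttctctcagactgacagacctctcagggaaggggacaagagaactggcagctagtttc

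Sirpa encodes the inhibitory receptor for CD47 that marks the cDC2 branch and also macrophages (chromosome 2, 129592839 to 129632228, plus strand). It was at 888, 696 and 696 CPM in PM replicates 1, 3 and 4, against 927, 741 and 780 CPM in PH replicates 1, 3 and 4. Each PM sample was below the PH sample of its id, id 1 was the highest in both treatments, and the groups overlapped. The log2 fold change was -0.10 ± 0.12 (adjusted p = 0.792, or 0.139 with the block), and in the blocked fit without id 1 it was -0.14 and passed (adjusted p = 0.0410). Reads of the related Sirpb1 genes could be split with Sirpa in counting, so its value is uncertain to that extent. Its ligand Cd47 (-0.10 ± 0.06) did not pass. The phosphatase Ptpn6, which SIRP-alpha recruits, was at 227 ± 20.3 CPM in PM and 254 ± 14.7 CPM in PH (SD, n = 3) and was lower with the block only (-0.17 ± 0.05, adjusted p = 0.0121).

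**Figure D3:**
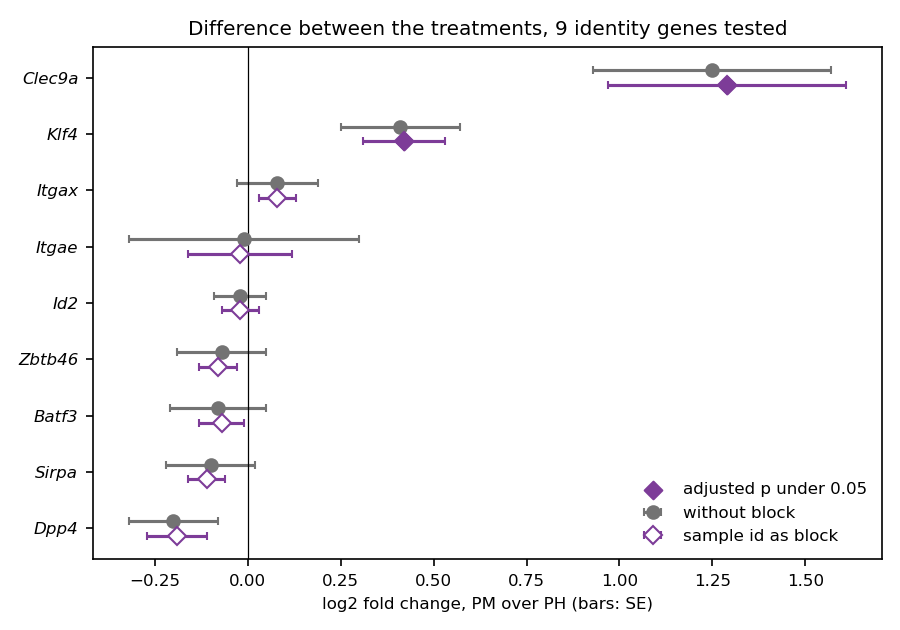
Log2 fold change, PM over PH, of the 9 identity genes tested, with SE as bars, from the fit without a block (circles) and with the sample id as a block (diamonds). Filled diamonds mark Clec9a (1.29) and Klf4 (0.42), which passed with the block, and the other 7 genes lie between -0.20 and 0.08.

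Several identity genes differed among the sample ids, in the same direction with both bacteria. In the blocked fit, a test of the id terms, added after the data had been seen, called 5 of 9 identity genes, against 18.9% of all 14382 genes. The pairing by id was itself taken from these counts, and whether 5 of 9 exceeds that share was not tested. Zbtb46, Batf3 and Itgae were lowest in id 1 within each treatment (adjusted p of the id terms = 1.3e-04, 6.4e-04 and 1.6e-04). Averaged over both treatments, their id 1 lay at -0.22, -0.22 and -0.59 on the log2 scale relative to the mean of all samples. Itgax and Sirpa were highest in id 1 within each treatment, at 0.14 and 0.21 by the same average (adjusted p = 2.0e-04 and 4.0e-05). Id2, Clec9a, Klf4 and Dpp4 did not pass (adjusted p = 0.735, 0.710, 0.244 and 0.169). The range over ids was 1.02 for Itgae, where PM minus PH was -0.01, and 0.34 for Sirpa, where it was -0.11. For Clec9a the range over ids was 0.30 and PM minus PH was 1.30. A range over 3 ids and a difference of 2 means are not the same measure, and which is larger was not tested. The same 5 genes passed without any 1 of the 6 samples, and Klf4 joined them without PM replicate 1 or PM replicate 4. The summed levels of the marker lists of other cells also differed by id. Within each treatment the sum of id 1 was highest for the macrophage, monocyte, neutrophil and B cell lists. It was lowest for the plasmacytoid, T cell, NK cell and mast cell lists. Sums follow the most abundant genes, and Chil3 made up most of the monocyte sum. Single markers could differ from their list: S100a9 (neutrophil) was highest in id 4 and Lair1 (plasmacytoid) highest in id 1 in both treatments. Some margins were small, as for monocyte markers in PH (6636 CPM in replicate 1, 6559 CPM in replicate 4). Macrophage markers summed to 5890 CPM in PM replicate 1 and 5118 CPM in PH replicate 1, against 4205 to 4534 CPM in the other PM samples and 3790 to 4431 CPM in the other PH samples. T cell markers summed to 17.8 CPM in PM replicate 1 and 17.8 CPM in PH replicate 1, against 25.4 and 25.9 CPM in the other PM samples and 27.3 and 28.8 CPM in the other PH samples. B cell markers summed to 23.0 CPM in PM replicate 1 and 19.3 CPM in PH replicate 1, against 10.7 and 12.6 CPM in the other PM samples and 10.1 and 11.9 CPM in the other PH samples. The part of these cells in the id differences was not tested.

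**Figure D4:**
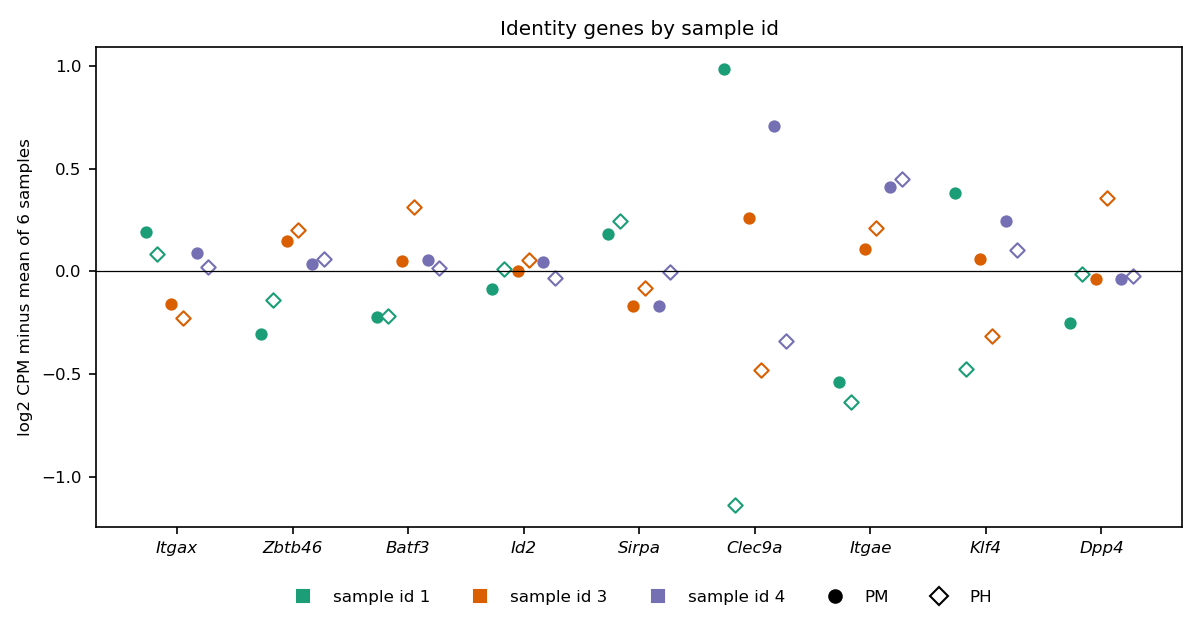
Log2 CPM of the 9 tested identity genes minus the mean of the 6 samples, by sample id (colours), with PM as filled circles and PH as open diamonds. Within each treatment the sample of id 1 lies lowest for Itgae, Zbtb46 and Batf3 and highest for Itgax and Sirpa, while for Clec9a the PM samples lie above the PH samples at each id.

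Of all genes, 2.34% passed without the block and 15.3% with it, and whether the lists below exceed these shares was not tested. Of 22 further genes of cDC in general or of the cDC1 branch, 20 were tested. With PM 0 rose and 1 fell (with the block 5 rose and 3 fell), and the median log2 fold change was 0.00. Btla, an inhibitory receptor, fell to 11.4 ± 0.435 CPM in PM, against 21.8 ± 1.97 CPM in PH (SD, n = 3), a log2 fold change of -0.93 ± 0.09 (adjusted p = 0.00162). With the block Cd36, a scavenger receptor, rose (0.58 ± 0.06), as did Rab7b, an endosomal GTPase (0.43 ± 0.06), and Havcr2, the receptor TIM-3 (0.53 ± 0.08). The cytokine receptor gene Flt3, through which cDC develop, was at 55.2 CPM on average in PM and 52.6 CPM in PH and did not pass (0.08 ± 0.12). The adhesion gene Cadm1 of the cDC1 branch was below the filter, at up to 0.205 CPM in PM and 0.259 CPM in PH. Of 20 further genes of the cDC2 branch, 19 were tested, 0 rose and 1 fell (4 rose and 4 fell with the block), with a median of 0.02. Cx3cr1, the fractalkine receptor, which monocytes also express, fell to 9.39 ± 1.62 CPM in PM, against 15.98 ± 2.35 CPM in PH (-0.78 ± 0.15, adjusted p = 0.0356). With the block Irf4, a transcription factor of cDC2, fell (-0.28 ± 0.05), Notch2 fell (-0.27 ± 0.05) and Clec4a2 rose (0.45 ± 0.08). Cd209a had 0 reads in each sample.

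Of 29 subunits, ligands, binding partners and relatives of the identity genes, all tested, 1 rose and 2 fell (with the block 3 rose and 8 fell). Their median was -0.09 on the log2 scale. Of all genes, 2.34% passed without the block and 15.3% with it, and whether the list exceeds these shares was not tested. Both relatives of Batf3 were lower. Batf was at 33.9 ± 1.54 CPM in PM and 45.1 ± 0.861 CPM in PH (-0.41 ± 0.06, adjusted p = 0.0106), and Batf2, an interferon-inducible member of the family, was at 1.71 ± 0.299 CPM in PM and 4.32 ± 0.649 CPM in PH (-1.32 ± 0.20, adjusted p = 0.0108). Whether their change differed from that of Batf3 was not tested. Dpp7, a lysosomal peptidase related to Dpp4, rose to 52.1 ± 0.497 CPM in PM, against 36.0 ± 3.44 CPM in PH (0.53 ± 0.08, adjusted p = 0.00895). Irf8, which acts with Batf3, was at 574 ± 37.1 CPM in PM and 631 ± 46.4 CPM in PH and was lower with the block only (-0.14 ± 0.05, adjusted p = 0.0412). Icam1 was also lower with the block only (-0.31 ± 0.05, adjusted p = 8.0e-06).

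Markers of other cells moved in part beside Clec9a and Klf4. The shares of all genes that passed were 2.34% without the block and 15.3% with it, and whether a marker list exceeds them was not tested. Of 13 macrophage markers 11 were tested, 1 rose and 0 fell (4 rose and 2 fell with the block), with a median of 0.10. Cd68, a lysosomal protein, was at 390 ± 54.5 CPM in PM and 286 ± 31.8 CPM in PH and was higher with the block only (adjusted p = 6.2e-09). Lyz2 (0.22 ± 0.05, adjusted p = 0.00118) and Apoe (0.62 ± 0.15, adjusted p = 0.00414) also rose with the block only. The 2 markers that fell with the block were C5ar1 (-0.33 ± 0.07, adjusted p = 5.7e-04) and Fcgr1 (-0.84 ± 0.29, adjusted p = 0.0489). At an unadjusted p under 0.05 in edgeR without the block, 3 macrophage markers were higher and 2 lower. DESeq2 called 2 higher and 0 lower. Fcgr1 was low, at 0.753 CPM in PM and 1.24 CPM in PH on average. The summed level of the list was 4205 to 5890 CPM in PM and 3790 to 5118 CPM in PH, and C1qa had 11 reads in all. Of 8 monocyte markers 0 passed in edgeR without the block, and their median was -0.26. There were 3 lower at an unadjusted p under 0.05, 1 lower by DESeq2 and 4 lower with the block. The list summed to 5391 to 6872 CPM in PM and 4857 to 6636 CPM in PH. Chil3 made up most of these sums, at 5108 to 6495 CPM in PM and 4521 to 6187 CPM in PH. Ly6c2, a monocyte surface marker, was at 115 ± 30.2 CPM in PM and 178 ± 34.7 CPM in PH, lower with the block only (-0.64, adjusted p = 7.5e-12). Of 10 neutrophil markers 1 fell, the receptor gene Csf3r (-0.96 ± 0.09), and 4 fell with the block. At an unadjusted p under 0.05 in edgeR without the block, 1 was higher, Elane (0.59 ± 0.22), and 1 was lower. The median of the list was -0.29, and the list summed to 373 to 523 CPM in PM and 489 to 609 CPM in PH. Of 6 plasmacytoid dendritic cell markers tested of 8, 0 passed in edgeR without the block, with a median of -0.12. There were 2 lower at an unadjusted p under 0.05, 1 lower by DESeq2 and 2 lower with the block. The list summed to 95.8 to 108 CPM in PM and 106 to 124 CPM in PH. The defining marker Siglech had 1 read in all. No B cell (6 tested), T cell (7), NK cell (2 of 5) or mast cell and basophil marker (6) passed in edgeR, with or without the block, by DESeq2 or at an unadjusted p under 0.05. Their summed levels were 10.7 to 23.0, 17.8 to 25.9, 1.67 to 3.41 and 96.3 to 117 CPM in PM, and 10.1 to 19.3, 17.8 to 28.8, 2.38 to 3.28 and 96.4 to 106 CPM in PH, in the same order. The part of these cells in the differences of Clec9a and Klf4 was not tested.

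**Figure D5:**
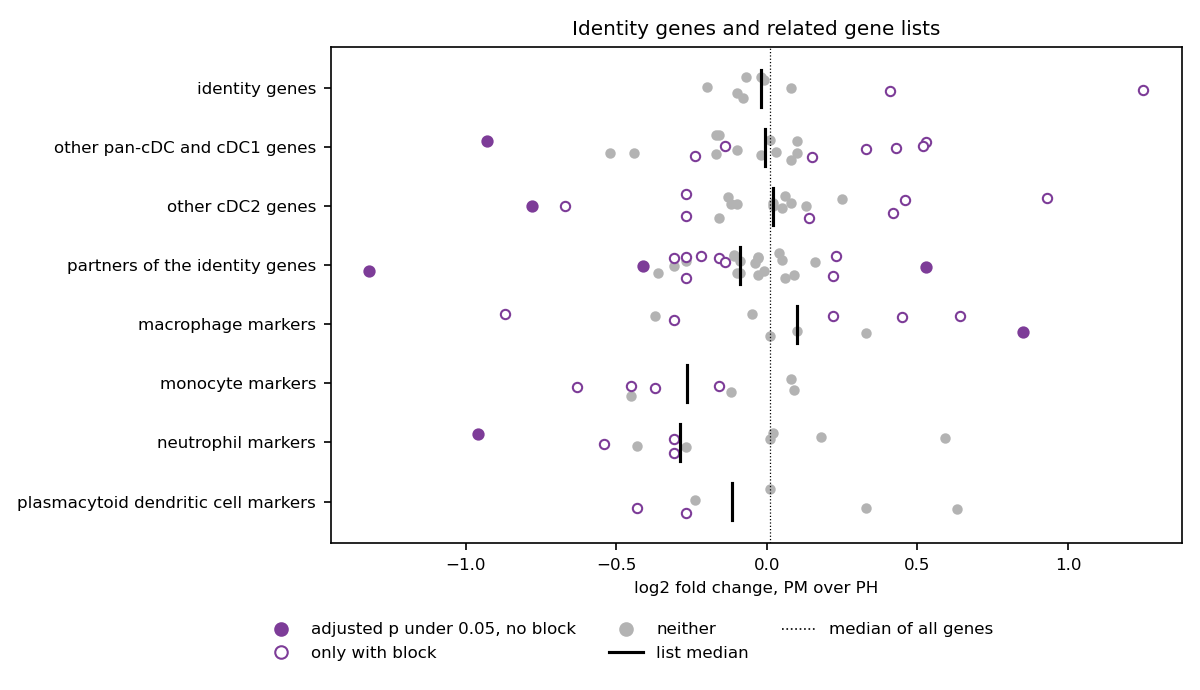
Log2 fold change, PM over PH, of each tested gene of the identity genes and of 7 related lists, from the fit without a block. Filled purple points passed without the block and open purple points only with it, black bars are list medians and the dotted line is the median of all genes. The identity genes hold 0 filled and 2 open points, Klf4 and Clec9a.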

How the data were processed

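RNA was measured in 3 PM and 3 PH samples of mouse bone marrow dendritic cells. The authors deposited read counts per gene, which are whole numbers with unequal totals per sample and so show no normalization. Per the labels' protocols, libraries were made from poly(A) RNA with a kit that keeps the strand. The submitters' processing notes name GRCm38, featureCounts 1.6.4, STAR 2.5.3a and Trimmomatic. They do not say which annotation release was used, whether counting used the strand, or how reads that map to several places were counted. No exon of the identity genes overlaps another gene of the table. Gene positions and exon lengths come from the deposited table (8 of 10 spans equal GENCODE M21, those of Batf3 and Sirpa do not), and promoter windows from RefSeq, where 8 of 10 genes had one. Sirpa and Itgae are named only.

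Each count column was 1 sample, and the number of unused columns was 0. No 2 columns agreed within sampling noise (chi-square per degree of freedom at least 4.99 over 15 pairs). PM was compared with PH by edgeR 4.0.16 in R 4.3.3, with TMM factors, filterByExpr at a minimum count of 10 (0.367 CPM in at least 3 samples), robust glmQLFit and glmQLFTest, no covariate, and Benjamini-Hochberg adjustment over 14382 genes at a threshold of 0.05. The SE is the log2 fold change divided by the square root of the test's F value. CPM and TPM were computed from the counts. The scripts were tested on simulated data. The alternatives were a block on the sample id, DESeq2 1.42.0, other scalings and filters and leaving out samples. Sample ids were taken to pair the samples, since log2 CPM deviations from the treatment means correlated at 0.44, 0.32 and 0.24 for ids 1, 3 and 4, against -0.35 to 0.07 between different ids. The deviations are centred within each treatment, so positive values for the same id push those between different ids down, and the contrast is partly built in. The pairing rests on the counts and not on the labels. The identity genes and all lists were chosen with earlier results of these data known. All identity genes are named. Of other lists, genes are named by the smallest p with the block among those that passed with or without the block, at most 4 a list. Flt3, Cadm1, Itgb2, Itgb7, Cdh1, Cd47, Ptpn6, Klf2, Klf6, Irf8, C1qa and Siglech were added for their role after their values were seen. Chil3, Fcgr1, Apoe and Elane were also added after their values were seen. The value of 1 gene of the marker lists is not reported here.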

Additional observations from a re-analysis of the deposited data

How the results depend on the processing

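Without the block, the 0 calls among identity genes held under DESeq2 size factors, library totals and DESeq2's test. They also held with a filter of 1 CPM (which removed Clec9a). The samples with run 1 libraries only, which leave out PM replicate 1 and PH replicate 3, gave 0 calls as well. With the replicate block 2 passed, and it changed no other call among identity genes. With no filter 1 passed. Without 1 sample 0 passed, with the block and an id left out 1 to 2 did (the 1 is Sirpa, without id 1), so 0 to 2 in all. Clec9a was 1.29 with the block and 1.25 with no filter, where it passed, and 0.95 to 1.57 with a sample or id left out. Klf4 was 0.42 with the block, and 0.21 to 0.65. Sirpa was -0.24 to -0.01 with a sample or id left out, and -0.30 (adjusted p = 0.114) with run 1 libraries only, where Dpp4 was -0.03, Klf4 0.28 and Clec9a 1.12. Signs of values near 0 turned with the samples with run 1 libraries only (Batf3 0.14, Id2 0.02, Itgae 0.21, Itgax -0.09, Zbtb46 0.12) and with library totals (Id2 0.00, Itgae 0.01). The samples with run 1 libraries only hold id 1 in PH alone and id 3 in PM alone. Differences among ids and between treatments therefore cannot be told apart in that setting. With a sample or id left out Batf3 was -0.20 to 0.06, Id2 -0.08 to 0.00, Itgae -0.29 to 0.29, Itgax -0.01 to 0.17 and Zbtb46 -0.16 to 0.04. The cause of these changes was not tested.

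Of all genes, 337 passed, against 2197 with the replicate block, 846 with no filter, 574 by DESeq2, 629 with run 1 libraries only and 142 to 2145 with a sample or id left out. In the same order of settings, calls were 8, 5, 2, 2 and 0 to 8 for other cDC2 genes, 8, 4, 2, 2 and 1 to 7 for other cDC and cDC1 genes, 11, 5, 6, 5 and 0 to 11 for partners, 4, 2, 1, 2 and 0 to 5 for monocyte markers and 2, 1, 1, 1 and 0 to 3 for plasmacytoid markers. Macrophage calls were 6 with the block, 3 with no filter, 2 by DESeq2 and 0 to 6 with a sample or id left out. Neutrophil calls were 4, 3 with no filter, 2 with run 1 libraries only and 1 to 5. T cell calls were 0 to 1. Genes differing among ids were 1691 (without PH replicate 3) to 3540. Depth limits Xcr1 and Clec9a most, since no library held more than 46 reads of either.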
